A study of Mus musculus with 12 samples.

Results

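The T cell receptor gene segments measured here were 8 of the 16426 genes that a single-symbol probe set of the array names. They were taken by symbol alone, as every gene whose name begins with Tra, Trb, Trg or Trd followed by the letter of a variable (V), diversity (D), joining (J) or constant (C) segment. All 8 were V segments: Trav7d-4, Trav14-1, Trav12-2, Trav13-5 and Trav19 of the alpha chain, Trbv1 of the beta chain, Trgv1 of the gamma chain and Trdv2-2 of the delta chain. No D, J or C segment was among them.

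A T cell recognises antigen through a receptor of paired chains, alpha with beta or gamma with delta. Each developing cell assembles its chains in the thymus when the RAG recombinase joins a V segment to a J segment. Beta and delta chains have a D segment between them. The V segment supplies part of the surface that differs between clones, and the joins supply part of it too. The delta segments lie inside the alpha locus, and gamma segments can be rearranged and transcribed in alpha-beta T cells that carry no gamma chain at their surface. In a bulk RNA sample, fewer cells that use a segment and less RNA of that segment per cell cannot be told apart.

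The study profiled CD4+ T cells of male C57Bl/6 mice aged 6 weeks on 12 arrays (Affymetrix Mouse Gene ST 1.0), in 6 groups of 2. Regulatory T cells (Tregs), a suppressive CD4+ population that depends on the transcription factor Foxp3, came from the spleens of Foxp3(M354/M354), Foxp3(M176/M176) and Foxp3(WT/WT) mice. They were sorted in 2 rounds as live CD4+ CD25high cells. The other 3 groups were wild-type conventional T cells (Tcons) that carried a retrovirus encoding M354, M176 or WT Foxp3 and were sorted as live CD4+ Thy1.1high cells. They are called transduced cells below. The labels list the beta chain of the receptor (TCRb) as a surface marker of all groups, and what M354 and M176 change in Foxp3 is not given in the sources used here. Every transduced group received a Foxp3 virus, so no empty-vector group enters these comparisons. Whether both arrays of a group stem from different mice or cultures is not in the labels, so the p-values measure only the spread between these arrays, which may be technical.

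The markers of the labelled cells were present on every array. Foxp3 was 5991 and 5485 in M354 Tregs, 3442 and 3321 in M176 Tregs and 5913 and 5327 in WT Tregs, and lay between 5233 and 6163 in transduced cells, and Cd4 between 2998 and 4375 in Tregs and between 3762 and 5201 in transduced cells (RMA intensity, linear scale). Both M176 Treg arrays were thus below the other Tregs in Foxp3, by a log2 change of -0.73 against WT Tregs (limma adjusted p = 0.000552). Of 6 Treg markers tested, 4 were called lower in M176 against WT Tregs (Foxp3, Gpr83, Il2ra and Tnfrsf18), where 11.3% of all genes were called lower. The calls of Gpr83, Il2ra and Tnfrsf18 depended on single arrays. With the small nucleolar RNA level described next as a covariate, 0 of these 4 markers were called. The part of this in the segment levels of M176 Tregs was not tested. Small nucleolar RNAs, short noncoding RNAs that guide the modification of other RNAs, stood apart in M176 Tregs, with a mean log2 intensity of 9.98 and 10.04, against 8.66 to 8.87 in the other Tregs and 8.61 to 9.64 in transduced cells. B cell transcripts were higher on the second WT Treg array than on the first, with Cd79a at 399 and 93.8. Calls of segments that were lost with the small nucleolar RNA level as a covariate, or without that WT array, are given below as such. Among Tregs this level was high on the M176 arrays alone, so the covariate overlaps with that group. Comparisons with M176 Tregs lose precision with it, and a call lost with it cannot tell the M176 allele from this level.

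The array resolves the receptor loci coarsely. The alpha and delta segments lie on chromosome 14, the beta segments on chromosome 6 and the gamma segments on chromosome 13, and RefSeq (GRCm38.p6) lists 202, 53 and 15 segments there. Among its 130 Trav segments in chromosomal order, Trav7d-4 is number 14, Trav14-1 number 98, Trav12-2 number 104, Trav13-5 number 123 and Trav19 number 126. Trdv2-2 lies between Trdv2-1 and Trav23, Trbv1 is the first of the beta segments, and Trgv1 lies between Trgv2 and Trgj4. The annotation holds 35 probe sets that match the rule on symbols. Of these, 9 name a single segment (Trav14-1 has 2 of them, and the brighter stands for it below), while 24 list several alpha segments and 2 list several gamma segments. Trav7d-4, Trav12-2 and Trav13-5 have transcript accessions that other probe sets list as well, so their values may include near-identical copies.

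All 8 segments passed the filter on low values, an intensity above the array's median on at least 2 arrays. Trdv2-2 passed through the transduced cells alone, where it was above the median on 6 of 6 arrays, against 0 of 6 Treg arrays, and so it had to differ between them. Trav12-2 was above the median on 5 of the 12 arrays. The segments scattered more between replicates than most genes, with a median residual SD of 0.23 on the log2 scale (0.12 to 0.45), against 0.14 over the 8918 genes tested. Calls rest on a limma fit of all 12 arrays and need an adjusted p under 0.05 (Benjamini-Hochberg, over those 8918 genes in each comparison).

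Among the Tregs, some V segments were higher in the M176 group. Against WT Tregs, 4 of the 8 were called higher and 0 lower in M176 Tregs (2 more, for 6 in all, had an unadjusted p under 0.05), in a comparison that called 24.7% of all genes, 13.4% higher and 11.3% lower. The log2 change was above 0 for all 8, with a median of 0.53, against -0.04 over all genes tested. In M354 Tregs against the same WT arrays, 1 segment was called higher and 1 lower, where 1.81% of all genes were called (0.886% higher, 0.919% lower), and the median change was -0.22 against -0.04 over all genes. Between the mutants, 6 of 8 were called lower in M354 Tregs and 0 higher, where 30.8% of all genes were called, 12.7% higher and 18.1% lower. These 3 comparisons share arrays and are not independent. With the small nucleolar RNA level of each array as a covariate, an alternative added after the data were seen, the count was 1 segment in M176 against WT Tregs (Trgv1) and 1 in M354 against M176 Tregs (Trav14-1). The share of all genes called under this covariate, or with an array left out, is not given here. The segment counts under these alternatives therefore cannot be read beside it. Single arrays moved the counts too. In M176 against WT Tregs, 2 segments were called without M176 replicate 1 and 1 without WT replicate 1. In M354 against M176 Tregs, 2 were called without M354 replicate 1, 4 without M176 replicate 1 and 4 without M176 replicate 2. In M354 against WT Tregs, 0 were called without M354 replicate 1 or WT replicate 1. Without the WT Treg array with more B cell transcript, 3 segments were called higher in M176 against WT Tregs and 1 was called lower in M354 against WT Tregs.

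In transduced cells no segment was called. The counts were 0 of 8 for M354 against WT (1.33% of all genes called), 0 of 8 for M176 against WT (0.516%) and 0 of 8 for M354 against M176 (0.0785%), and 0 segments had an unadjusted p under 0.05 in each. The log2 changes lay between -0.06 and 0.22, between -0.24 and 0.13 and between -0.08 and 0.38. Their 95% intervals reached from -0.48 to 0.76 for M354 against WT, from -0.86 to 0.56 for M176 against WT and from -0.43 to 0.996 for M354 against M176.

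**Figure D1:**
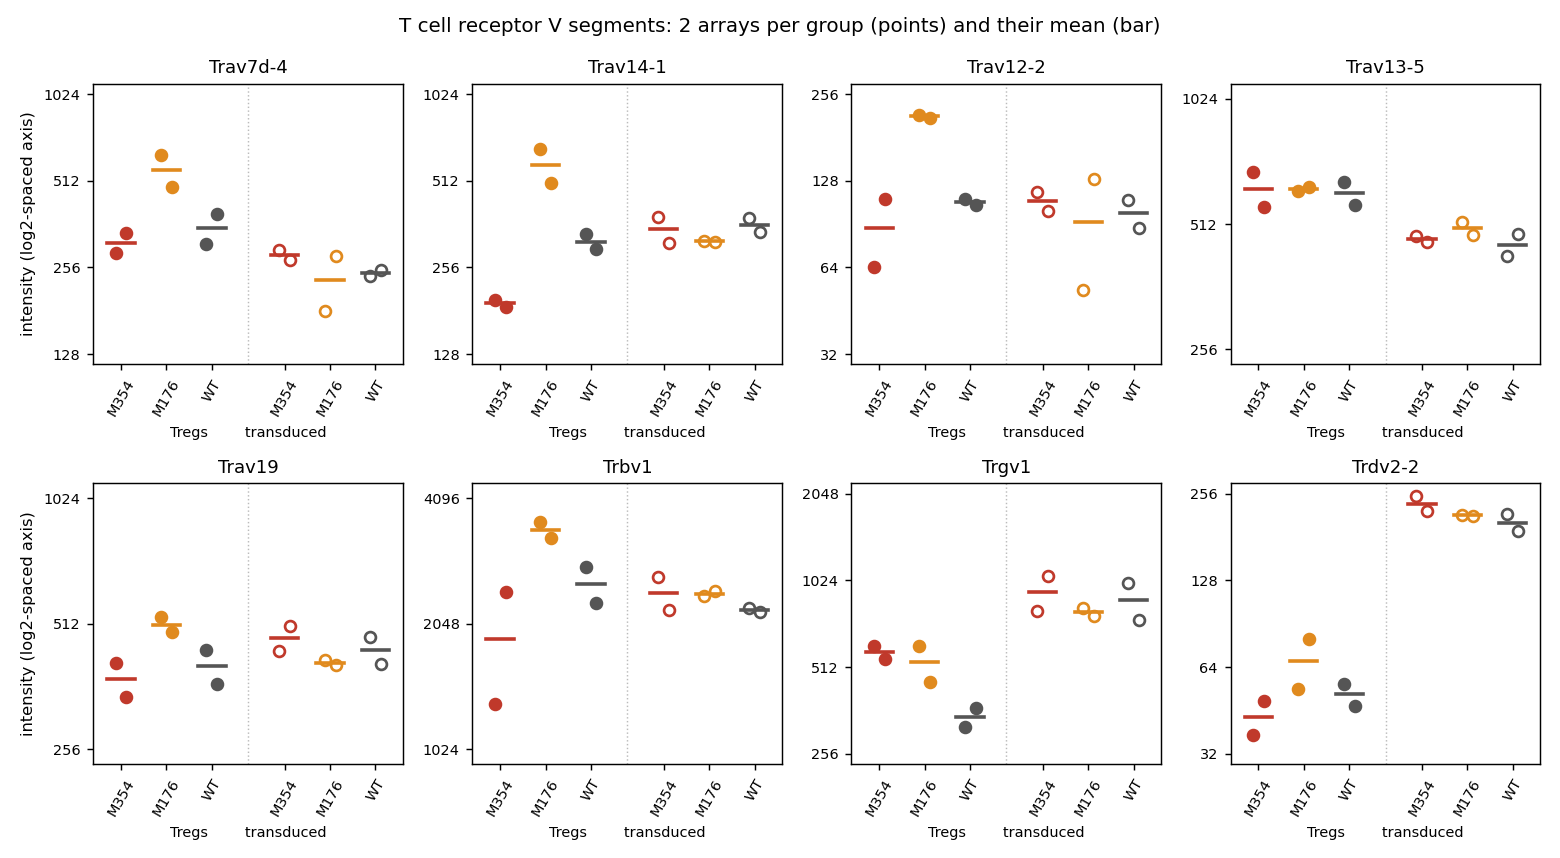
Intensity (RMA, linear values on a log2-spaced axis) of the 8 V segments in the 6 groups. Each point is an array, each bar the mean of 2 arrays, with Tregs filled and transduced cells open. Trav14-1, Trav12-2 and Trav7d-4 stood highest on both M176 Treg arrays, and Trdv2-2 was lower on every Treg array (37.1 to 80.3) than on any transduced array (189 to 251).

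Trav14-1, an alpha V segment, was the only 1 of the 8 called in all 3 comparisons of the Treg groups. Its intensity was 198 and 187 in M354 Tregs, 661 and 504 in M176 Tregs and 334 and 296 in WT Tregs. None of these groups overlapped, and M354 Tregs were lowest and M176 Tregs highest. The means were 192 ± 7.63 in M354, 582 ± 111 in M176 and 315 ± 27.4 in WT Tregs (SD, n = 2 arrays each). It fell in M354 Tregs against WT Tregs by 0.71 on the log2 scale (SE 0.15, limma adjusted p = 0.018) and rose in M176 Tregs by 0.88 (SE 0.15, limma adjusted p = 0.000556). M354 Tregs lay below M176 Tregs by a log2 change of -1.59 (SE 0.15, limma adjusted p = 1.77e-06), a difference that no array left out and no alternative took from the called side. The fall in M354 Tregs rested on few arrays. Its limma adjusted p was 0.103 without M354 replicate 1, 0.116 without M354 replicate 2 and 0.148 without WT Treg replicate 1. The rise in M176 Tregs was called with each array left out and was lost with the small nucleolar RNA covariate (log2 0.78, limma adjusted p = 0.102).

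In transduced cells Trav14-1 was 384 and 311 with M354, 317 and 315 with M176 and 379 and 341 with WT Foxp3, and the M354 and WT arrays overlapped. The M176 effect was larger in Tregs than in transduced cells by 1.06 on the log2 scale (SE 0.21, 95% interval 0.61 to 1.51, limma adjusted p = 0.00823). Trav14-1 was the 1 segment of 8 called in that comparison, which called 5.49% of all genes, 4.03% higher. The adjusted p of that difference was 0.0657 without M176 Treg replicate 1 and 0.0737 with the small nucleolar RNA covariate.

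The second probe set of Trav14-1 gave 173 and 246 in M354 Tregs, 525 and 455 in M176 Tregs and 276 and 278 in WT Tregs. It was again highest in M176 Tregs, with a log2 change of 0.82 against WT (limma adjusted p = 0.00594, over the 11397 probe sets tested). Its change in M354 Tregs, -0.43, was not called (limma adjusted p = 0.383). The probe sets of this gene disagreed between the systems: over all Tregs against all transduced cells the second was higher in Tregs by 0.45 (limma adjusted p = 0.00295), while the brighter gave -0.06 (limma adjusted p = 0.584).

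Trav12-2, a dimmer alpha V segment, was 64.3 and 111 in M354 Tregs, 217 and 211 in M176 Tregs and 111 and 105 in WT Tregs. Both M176 Treg arrays lay above every other array, and M354 and WT Tregs overlapped. The rise in M176 against WT Tregs was 0.99 on the log2 scale (SE 0.29, limma adjusted p = 0.0209). M354 Tregs were lower than M176 Tregs by 1.34 (SE 0.29, limma adjusted p = 0.0024), and the change of -0.36 in M354 against WT Tregs was not called. The rise in M176 Tregs was no longer called when either M176 or either WT Treg array was left out (limma adjusted p 0.11 and 0.0719 without M176 replicates 1 and 2, 0.0551 and 0.0727 without WT replicates 1 and 2). The difference between the mutants lost its call without M354 replicate 1 (limma adjusted p = 0.075). With the small nucleolar RNA covariate the change was 0.29 in M176 against WT Tregs (limma adjusted p = 0.784) and -0.60 in M354 against M176 Tregs (limma adjusted p = 0.468). In transduced cells the values were 117 and 100.1 with M354, 53.4 and 130.2 with M176 and 109.8 and 88 with WT Foxp3, a wide scatter within the M176 group.

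Trav7d-4, which lies toward the start of the alpha locus, was 287 and 336 in M354 Tregs, 630.3 and 486 in M176 Tregs and 308 and 393 in WT Tregs. The M176 arrays were again above the others, with means of 311 ± 34.9 in M354, 558 ± 102 in M176 and 350.4 ± 60.6 in WT Tregs (SD, n = 2 arrays each). The rise in M176 against WT Tregs was 0.67 on the log2 scale (SE 0.19, limma adjusted p = 0.016). M354 Tregs were lower than M176 Tregs by 0.83 (SE 0.19, limma adjusted p = 0.0033) and differed from WT Tregs by -0.17, which was not called. The rise lost its call without M176 replicate 1 (limma adjusted p = 0.2) or WT replicate 1 (0.145), and the difference between the mutants without M354 replicate 1 (0.0548) or M176 replicate 1 (0.066). With the small nucleolar RNA covariate the changes were 0.22 in M176 against WT Tregs (limma adjusted p = 0.740) and -0.35 in M354 against M176 Tregs (limma adjusted p = 0.505).

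The other alpha segments moved less with genotype. Trav19 was 413 and 343 in M354 Tregs, 531 and 488 in M176 Tregs and 442 and 367 in WT Tregs, and its only call was the fall of 0.44 in M354 against M176 Tregs (SE 0.14, limma adjusted p = 0.0302). That call was lost without M354 replicate 2 (limma adjusted p = 0.194), M176 replicate 1 (0.188) or M176 replicate 2 (0.0676), and after quantile normalisation (0.124) or with the small nucleolar RNA covariate (0.0591). Trav13-5 was 684 and 562 in M354 Tregs, 614 and 629 in M176 Tregs and 648 and 568 in WT Tregs. Its groups overlapped, and its change against WT was 0.03 in each mutant, with 95% intervals of -0.25 to 0.32 for M354 and -0.25 to 0.32 for M176.

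Trbv1, the beta V segment, was 1318 and 2448 in M354 Tregs, 3597 and 3287 in M176 Tregs and 2799 and 2294 in WT Tregs. M176 Tregs were highest, and M354 replicate 1 lay far below every other Treg array. The change was 0.44 in M176 (limma adjusted p = 0.127) and -0.50 in M354 (limma adjusted p = 0.337) against WT Tregs, neither of them called. M354 Tregs were lower than M176 Tregs by 0.94 on the log2 scale (SE 0.21, limma adjusted p = 0.0026). Without M354 replicate 1 that change was -0.49 and was not called (limma adjusted p = 0.0647), nor was the change of -0.68 with the small nucleolar RNA covariate (limma adjusted p = 0.264). In transduced cells Trbv1 was 2651 and 2209 with M354, 2382 and 2451 with M176 and 2240.0 and 2181 with WT Foxp3, and the M354 arrays overlapped both other groups.

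**Figure D2:**
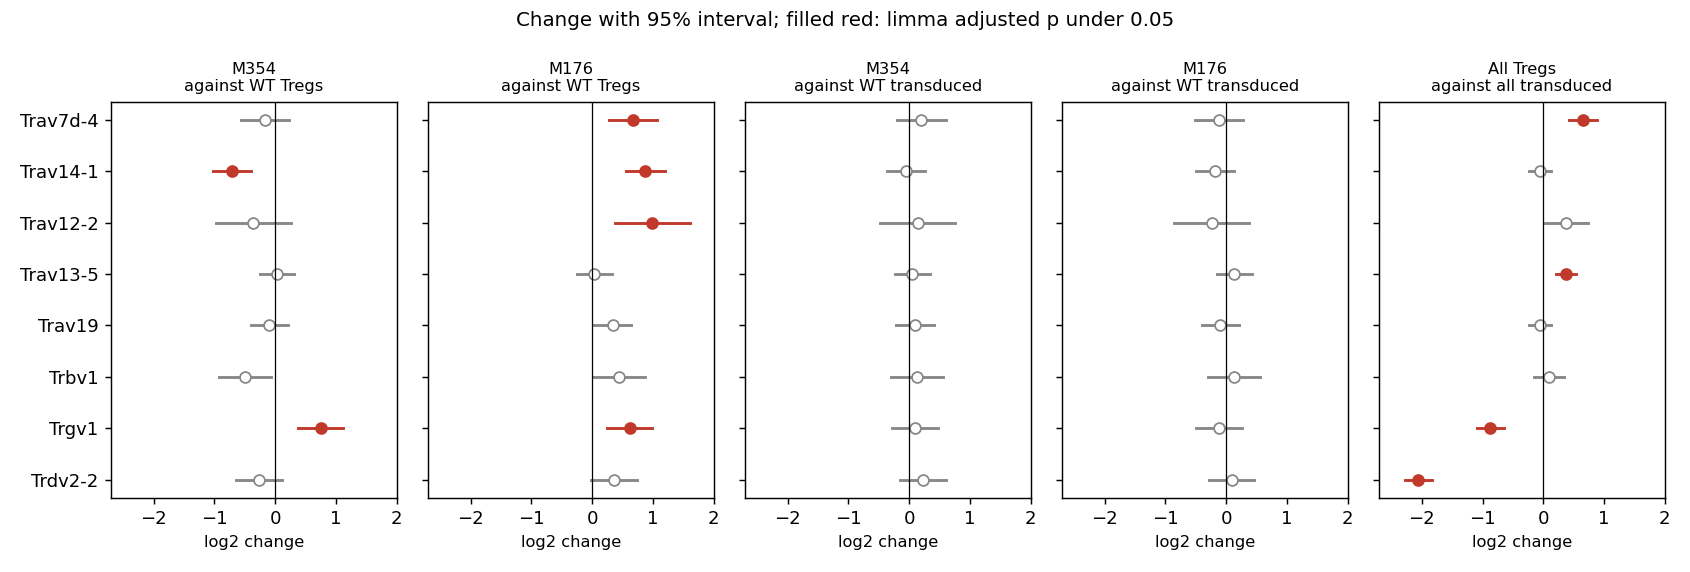
Log2 change of each V segment in 5 comparisons, with its 95% interval from the limma fit. Red marks an adjusted p under 0.05. The red points lie above 0 for M176 against WT Tregs, none is red in the transduced cells, and Trgv1 (-0.87) lies below 0 for all Tregs against all transduced cells. The red point of Trdv2-2 in that last comparison is no support, because the gene passed the filter only through transduced arrays.

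Trgv1, the gamma V segment, was higher in both mutants than in WT Tregs. It was 604 and 548 in M354 Tregs, 607 and 456 in M176 Tregs and 317 and 369.5 in WT Tregs, with no overlap between either mutant and WT. The means were 576 ± 40.2 in M354, 531 ± 106 in M176 and 343 ± 36.8 in WT Tregs (SD, n = 2 arrays each). The rise was 0.75 in M354 (SE 0.18, limma adjusted p = 0.0376) and 0.62 in M176 (SE 0.18, limma adjusted p = 0.017), and both rises were measured against the same WT arrays. The mutants themselves differed by 0.13 (95% interval -0.24 to 0.50, limma adjusted p = 0.615).

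The M354 rise of Trgv1 was close to the threshold. Its limma adjusted p lay between 0.0603 and 0.26 when any single M354 or WT Treg array was left out. It was 0.0535 and 0.0536 when either M176 transduced array was left out, 0.0612 with replicate number as a block and 0.05004 over the probe sets. The M176 rise lost its call without M176 replicate 1 (limma adjusted p = 0.23) or WT replicate 1 (0.119), and with the small nucleolar RNA covariate it was 1.15 and called (limma adjusted p = 0.0202). In transduced cells Trgv1 was 799.8 and 1063 with M354, 819 and 769.7 with M176 and 1001 and 744 with WT Foxp3, and the groups overlapped.

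A pair of probe sets lists Trgv2, Trgv4 and Trgv6 together, and no single one of these genes can be assigned to them. They share 9 transcript accessions and are not independent measurements. The brighter, 10403821, was 1455 and 1122 in M354 Tregs, 2874 and 2504 in M176 Tregs and 1044 and 868 in WT Tregs. The other, 10407940, was 1083 and 923 in M354 Tregs, 2191 and 1891 in M176 Tregs and 722 and 637 in WT Tregs. On both, M176 Tregs were far above WT Tregs and M354 Tregs a little above them.

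The rise in M176 against WT Tregs was 1.49 for probe set 10403821 (limma adjusted p = 4.87e-05) and 1.58 for probe set 10407940 (limma adjusted p = 1.51e-05), where 15.4% of the 11397 probe sets were called higher. In M354 Tregs the changes were 0.42 (limma adjusted p = 0.225) and 0.56 (limma adjusted p = 0.0446), so that 1 of the 2 was called where 1.81% of probe sets were called higher. That call was lost in 11 of the 17 alternatives run, 10 of them with an array left out (limma adjusted p 0.0559 to 0.313). In Tregs, M354 lay below M176 by -1.07 and -1.03. The M176 rises were called with each array left out and with the small nucleolar RNA covariate (1.62 and 1.77, limma adjusted p = 0.0127 and 0.00304).

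The M176 effect on these probe sets differed between the systems. In transduced cells 10403821 was 3651 and 3594 with M354, 2932 and 3025 with M176 and 3678 and 3186 with WT Foxp3, and 10407940 was 3232 and 3483 with M354, 2695 and 2764 with M176 and 3342 and 2964 with WT Foxp3. The M176 arrays were the lowest there, by -0.20 and -0.21 against WT on the log2 scale, which was not called. The effect in Tregs minus that in transduced cells was 1.70 for 10403821 (limma adjusted p = 0.0013) and 1.79 for 10407940 (limma adjusted p = 0.000405), in a comparison that called 5.55% of probe sets, 4.46% higher. For Trgv1 the same difference was 0.74 (limma adjusted p = 0.0938) and was not called.

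**Figure D3:**
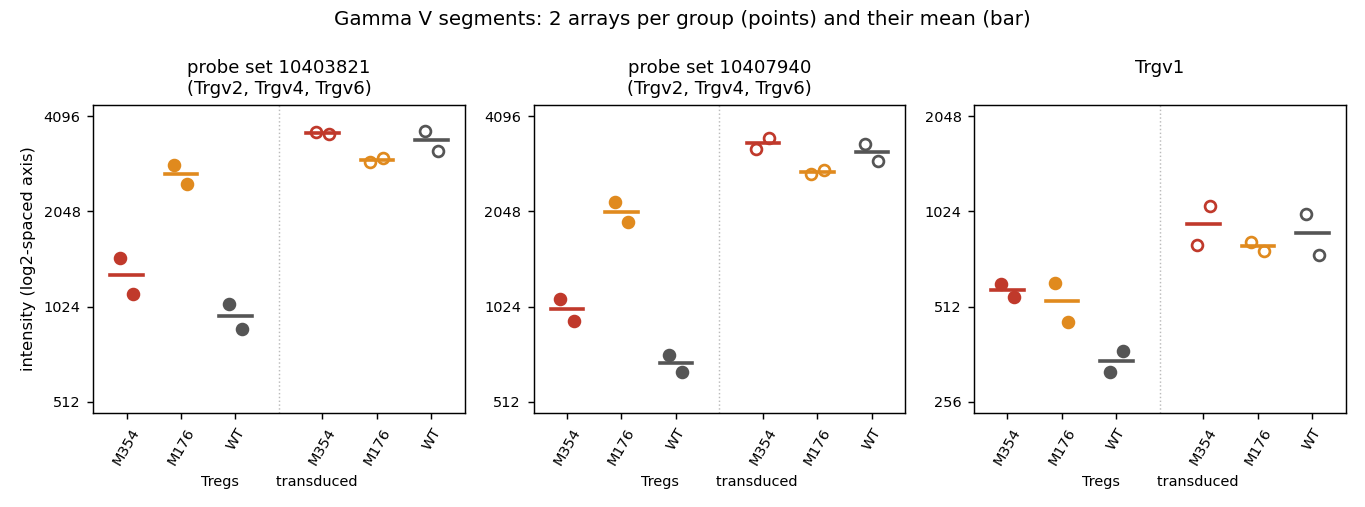
Intensity (RMA) on each array of the probe sets 10403821 and 10407940, which list Trgv2, Trgv4 and Trgv6 together, and of Trgv1. Points are arrays and bars are means of 2 arrays, with Tregs filled and transduced cells open. On the first panel M176 Tregs (2874 and 2504) reach toward the transduced cells (2932 to 3678), while M354 and WT Tregs lie at or below 1455.

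Markers of gamma-delta T cells were read beside the gamma segments. The summed intensity of the 7 markers on the table was 2486 to 2492 in M354 Tregs, 1199 to 1261 in M176 Tregs and 2009 to 2051 in WT Tregs. Of the 6 that were tested, 0 were called higher in M176 against WT Tregs and 1 was called lower, Maf. In that comparison 13.4% of all genes were called higher and 11.3% lower. Maf makes up most of this sum. Without Maf the other 6 markers summed to 695 to 769 in M354 Tregs, 581 to 616 in M176 Tregs and 667 to 718 in WT Tregs. The part of gamma-delta T cells in the levels of the gamma segments was not tested.

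Trdv2-2, the delta V segment, was dim in all Tregs. It was 37.1 and 48.9 in M354 Tregs, 53.8 and 80.3 in M176 Tregs and 56 and 47 in WT Tregs, below the median of the array on each of them. Between these dim values, M354 Tregs were lower than M176 Tregs by 0.63 on the log2 scale (SE 0.18, limma adjusted p = 0.0143). That call was lost without M354 replicate 1 (limma adjusted p = 0.195) or M176 replicate 2 (0.225) and with the small nucleolar RNA covariate (0.300), and neither mutant was called against WT. In transduced cells Trdv2-2 was 251 and 223 with M354, 217 and 214 with M176 and 217 and 189 with WT Foxp3.

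Between the systems, the gamma segment was lower and 2 alpha segments were higher in Tregs. Trdv2-2 is left out of these counts, since the filter kept it through its transduced values. Over all Tregs against all transduced cells, 2 of the other 7 segments were called higher and 1 lower, where 58.6% of all genes were called, 20.9% higher and 37.7% lower. The median change of the 7 was 0.09, against -0.10 over all genes tested. Between the WT groups alone, 1 of the 7 was called higher and 1 lower, where 30.2% of all genes were called, 10.9% higher and 19.4% lower. With both directions counted, the segments were called no more often than all genes in either comparison. Sort, virus, culture and cell origin differ together between the systems and cannot be told apart.

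Trdv2-2 had a lowest, median and highest intensity of 37.1, 51.4 and 80.3 over the 6 Treg arrays, and of 189, 217 and 251 over the 6 transduced arrays. The Treg values lay between the percentiles 16.7 and 42.8 of their arrays, and no fold is given against values this dim. The gene entered the fit only because it was high in transduced cells, so this difference is a description without a test.

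Trgv1 was at 317, 502 and 607 (lowest, median and highest) in Tregs and at 744, 809.6 and 1063 in transduced cells, again with no overlap. It was lower in Tregs by 0.87 on the log2 scale (SE 0.10, limma adjusted p = 1.84e-06), and by 1.33 between the WT groups (SE 0.18, limma adjusted p = 2.07e-05). The probe sets listing Trgv2, Trgv4 and Trgv6 ran the same way, with changes of -1.17 and -1.46 over all arrays and of -1.85 and -2.21 between the WT groups, where 34.7% and 17.1% of probe sets were called lower. All gamma probe sets of the array were thus lower in Tregs than in transduced cells.

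Trav13-5 was at 562, 621 and 684 in Tregs and at 429, 481 and 519 in transduced cells, with no overlap. It was higher in Tregs by 0.37 on the log2 scale (SE 0.08, limma adjusted p = 0.00071) and by 0.41 between the WT groups (SE 0.14, limma adjusted p = 0.0296). The difference between the WT groups was not called without WT Treg replicate 1 (limma adjusted p = 0.223) or WT transduced replicate 1 (0.195). Trav7d-4 was at 287, 365 and 630.3 in Tregs and at 180.2, 261 and 293 in transduced cells, where the lowest Treg array lay below the highest transduced array. Its rise in Tregs was 0.65 (SE 0.11, limma adjusted p = 9.69e-05), and 0.50 between the WT groups, which was not called (limma adjusted p = 0.0529). Trav14-1, Trav19 and Trbv1 had changes of -0.06, -0.05 and 0.09 over all arrays, none of them called, and Trav12-2 had 0.38 (limma adjusted p = 0.0643).

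Markers of other lymphocytes also differed between the systems. In all Tregs against all transduced cells, 58.6% of all genes were called, 20.9% higher and 37.7% lower, and each count here is to be read beside those shares. Of 6 gamma-delta markers tested, 1 was called higher and 4 lower, and the sum of the list was 1199 to 2492 in Tregs and 2326 to 3241 in transduced cells. Without Maf, the other 6 markers on the table summed to 581 to 769 in Tregs and 1399 to 1578 in transduced cells. The marker called higher, Cd163l1, was above the median on 2 of 6 Treg arrays and 0 of 6 transduced arrays. It passed the filter through the Tregs alone, so its call is no support. Zbtb16, a transcription factor of innate-like T cells, had a change of -1.29. Of the 9 listed markers of CD8 T and NK cells, 8 were on the table and 5 passed the filter, and these 5 were called lower in Tregs, with sums of 1608 to 3240 in Tregs and 4101 to 5057 in transduced cells. Among these was Cd8b1, a chain of the CD8 co-receptor (-0.86), which was above the median of every array. Tmem176a and Klrd1 were above the median on 0 of 6 Treg arrays and 6 of 6 transduced arrays, so they passed the filter through the transduced cells and had to differ. Cd8a was above the median on 1 of 6 Treg arrays and 6 of 6 transduced arrays. It too passed the filter through the transduced cells, so its call is no support. Of 9 tested B cell markers, 1 was called higher and 6 lower, with sums of 1856 to 4347 in Tregs and 3840 to 4254 in transduced cells. The highest Treg sum was that of the second WT array. M354 Tregs summed to 2188 to 2262, M176 Tregs to 1856 to 1963 and the first WT array to 2096. Among the B cell markers called lower, Ms4a1 was above the median on 1 of 6 Treg and 6 of 6 transduced arrays, and Pax5 on 1 and 2. They passed the filter through the transduced cells, so their calls are no support. The part of these other lymphocytes in the levels of the gamma and delta segments was not tested.

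The 24 probe sets that list several alpha segments widen the view of the alpha chain, though 16 of them share a transcript accession with another and 19 list Trav3n-3 or Trav3-3. Against WT Tregs, all 24 had a change above 0 in M176 Tregs (0.13 to 1.06, median 0.37, against -0.02 over all probe sets tested), and 10 were called higher and 0 lower, where 25.8% of probe sets were called. In M354 against WT Tregs, 0 were called (0 at an unadjusted p under 0.05), where 2.69% were. Between the mutants, 13 were called lower in M354 Tregs and 0 higher (median -0.37), where 19% of probe sets were called lower. In transduced cells the counts were 0 of 24 for M354 against WT (0.895% of probe sets called), 0 for M176 against WT (0.351%) and 0 for M354 against M176 (0.00877%). At an unadjusted p under 0.05 there were 0, 1 and 2.

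The share of all probe sets called under the alternatives that follow is not given here. The count in M176 against WT Tregs depended on single arrays and on the processing. It was 2 without M176 replicate 1, 3 without WT Treg replicate 2, 5 after quantile normalisation and 0 with the small nucleolar RNA covariate. The 13 called between the mutants were 6 without M354 replicate 1, 8 without M354 replicate 2, 4 without M176 replicate 1, 7 after quantile normalisation and 1 with that covariate. The largest change in M176 against WT Tregs, 1.06, belonged to 10414909, a probe set that lists Trav3n-3 and Trav3-3. The comparison of M176 effects between the systems called 5.55% of all probe sets, 4.46% higher. The M176 effect was larger in Tregs than in transduced cells for all 24, and 3 of these differences were called, a count that ran between 0 and 7 with an array left out, lowest without M176 Treg replicate 1 and highest without M176 transduced replicate 2.

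Over all Tregs against all transduced cells, 23 of the 24 were called higher in Tregs and 0 lower (0.19 to 1.10, median 0.58, against -0.08 over all probe sets), where 22.3% of probe sets were called higher. Between the WT groups 18 were called higher and 0 lower, where 10.4% of probe sets were higher. That count was 4 without WT Treg replicate 1 and 8 without WT transduced replicate 1. The largest change over all arrays was in 10414814, which lists Trav3n-3, Trav6d-6 and Trav3-3. It was 2385 and 2307 in M354 Tregs, 2471 and 2173 in M176 Tregs and 2245 and 2003 in WT Tregs, against 1078 and 1134 with M354, 862 and 1058 with M176 and 1127 and 1081 with WT Foxp3 in transduced cells. Every Treg array lay above every transduced array (log2 change 1.10, limma adjusted p = 6.27e-08).

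**Figure D4:**
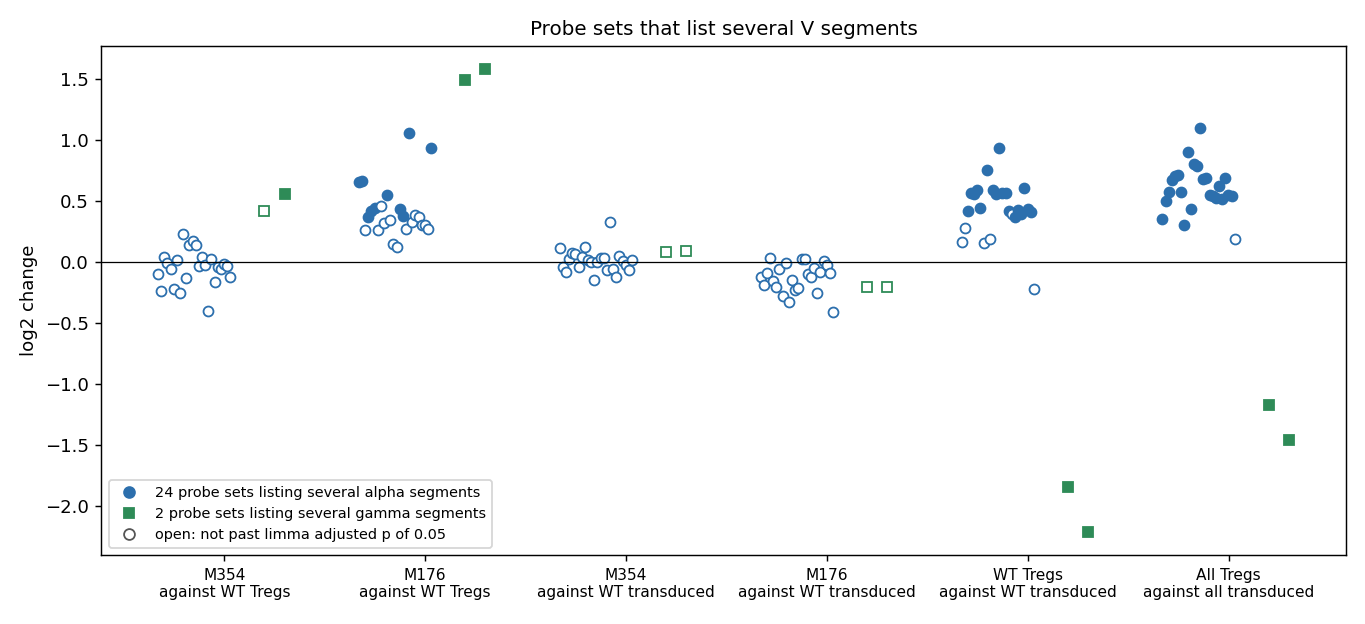
Log2 change of the 24 alpha (circles) and 2 gamma (squares) probe sets that list several segments, in 6 comparisons. Filled symbols have a limma adjusted p under 0.05 over 11397 probe sets. For all Tregs against all transduced cells the alpha probe sets lie above 0 (0.19 to 1.10) and the gamma ones below (-1.17 and -1.46), and for M176 against WT Tregs both kinds lie above 0.

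The receptor chains are carried to the surface by the CD3 chains and signal through them. Of the complex and its co-receptor, Cd3d, Cd3e, Cd3g, Cd4 and Trat1 were measured, 5 of 6 genes listed. In M176 against WT Tregs, where 24.7% of all genes were called, 2 were called higher and 1 lower, and with the small nucleolar RNA covariate 0 of these 3. Cd3d, a CD3 chain, was 802 and 1097 in M354 Tregs, 2261 and 1890.0 in M176 Tregs and 1064 and 802 in WT Tregs, a log2 rise of 1.16 in M176 against WT (limma adjusted p = 0.000596). Trat1, an adaptor that stabilises the receptor complex, rose by 0.72 in M176 Tregs (limma adjusted p = 0.00247), while Cd3e, a further CD3 chain, fell by 0.48 (limma adjusted p = 0.00964). With the covariate the changes were 0.58 for Cd3d (limma adjusted p = 0.306), 0.69 for Trat1 (0.150) and -0.51 for Cd3e (0.185). Leaving out M176 replicate 1, M176 replicate 2 or WT replicate 1 also lost the call of Cd3e (limma adjusted p up to 0.0730). The median of the list was -0.21, against -0.04 over all genes. In M354 against WT Tregs 0 of 5 were called, where 1.81% of all genes were. In the 3 comparisons of transduced cells 0 of 5 were called, where 1.33% (M354 against WT), 0.516% (M176 against WT) and 0.0785% (M354 against M176) of all genes were.

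The comparisons of allele effects between the systems called 1.08% (M354) and 5.49% (M176) of all genes. Trat1 was the gene of this list whose allele effects differed, by -0.97 for M354 (limma adjusted p = 0.0337) and by 0.84 for M176 (limma adjusted p = 0.0291). Both were lost with the covariate (limma adjusted p = 0.0514 and 0.148), and they were called in 5 and 6 of the 12 fits with an array left out. Over all Tregs against all transduced cells Trat1 (1.08) and Cd3g (0.29) were called higher and Cd4 lower (-0.31), where 58.6% of all genes were called.

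Of 26 genes of proximal receptor signalling listed, 17 were tested. In M176 against WT Tregs 1 was called higher, the adaptor Sit1 (0.56), and 4 lower. These 5 of 17 are 29.4%, near the 24.7% of all genes called in that comparison, and 1 of the 5, Sla, was still called with the small nucleolar RNA covariate. Sit1 was not called without M176 Treg replicate 1 or WT Treg replicate 2, and Cbl was not without M176 Treg replicate 1. Sla2 was not called when either M176 or either WT Treg array was left out. The ubiquitin ligases Cbl and Cblb, which restrain receptor signalling, had changes of -0.68 and -0.84, and the adaptors Sla and Sla2, which lower receptor levels, -0.70 and -0.39. The median of the list was -0.17, against -0.04 over all genes. In M354 against WT Tregs 0 of 17 were called, where 1.81% of all genes were. In each comparison of transduced cells 0 of 17 were called, where 1.33% of all genes or fewer were.

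Genes that build the receptor were near the limit of the array. Rag1 and Rag2, the recombinase, and Ptcra, the pre-receptor alpha chain, did not pass the filter. Dntt, which adds untemplated bases at the joins, was 43.1 and 48 in M354 Tregs, 35.7 and 41.4 in M176 Tregs and 51.8 and 49.2 in WT Tregs, against 73.2 and 78.4 with M354, 112 and 163 with M176 and 128 and 128 with WT Foxp3 in transduced cells. Dntt was above the array's median only on the M176 and WT transduced arrays, 4 of 12, and passed the filter through them. Its values are therefore given as a description, with no test.

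Most differences in allele effect between the systems were not called. The M354 effect in Tregs minus that in transduced cells was called for 0 of 8 segments, where 1.08% of all genes were called, and 3 segments had an unadjusted p under 0.05. These were Trav14-1 (-0.66, limma adjusted p = 0.251), Trgv1 (0.65, limma adjusted p = 0.416) and Trbv1 (-0.63, limma adjusted p = 0.601). For M176, the differences of Trav12-2 (1.22, limma adjusted p = 0.0935) and Trav7d-4 (0.79, limma adjusted p = 0.0934) were not called.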

How the data were processed

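The authors used RMA in Affymetrix Power Tools, per the submitters' processing notes. The deposited values are intensities on a linear scale for 20716 probe sets, with array medians of 101.5 to 117.4. The genome build is not given in the sources used here. The supplied annotation gave 17703 probe sets 1 symbol, 1246 several and 1767 none. The brightest probe set stood for each of 16426 genes. Log2 intensities of the 8918 genes above the array median (percentile 50) on at least 2 of 12 arrays entered a limma fit (limma 3.58.1, R 4.3.3) of 1 mean per group (6 residual degrees of freedom, prior 10.9), after a test on simulated data. Per-array values are given for every called segment, and the listed genes are given as counts with examples. The number of arrays limits the precision. A fit over 11397 probe sets and a small nucleolar RNA covariate were added after seeing the data. Members and lists were chosen with earlier results of these data known. Other alternatives were no filter, a stricter filter at percentile 75, quantile normalisation, the mean of probe sets, a replicate block and leaving out each array.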

Additional observations from a re-analysis of the deposited data

Results flagged for a closer look

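The M176 effect differed between Tregs and transduced cells for 6 flagged features by the test of that difference in the limma fit. Trav14-1 was called in the fit over genes, and the others are probe sets listing several segments. In the fit over probe sets, 2 of the 9 that name a single segment were called higher too. Trav14-1 had a difference of 1.06 on the log2 scale. The probe sets 10403821 and 10407940, which list Trgv2, Trgv4 and Trgv6 together, had 1.70 and 1.79. Among the probe sets that list several alpha segments, 10414728 had 0.85 (limma adjusted p = 0.0365), 10414909 had 1.18 (limma adjusted p = 0.0386) and 10415015 had 1.34 (limma adjusted p = 0.0152). Groups of 2 arrays are too small to look for a single array far from the rest of its group.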

How the results depend on the processing

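Of the 20 calls of single segments over 10 comparisons (Trdv2-2 included), 7 held under every alternative tried. These 7 include Trdv2-2 between the WT groups and over all Tregs against all transduced cells. The filter fixed those differences, so they are no support, and the ranges below for these comparisons count Trdv2-2 too. None of the 20 calls changed direction in 375 values. The call was lost in 42 of these values, 29 of them with an array left out. The count of segments called was 1 in M354 against WT Tregs with the mean of probe sets and 1 with the replicate block, and 1 in M176 against WT Tregs and 1 in M354 against M176 Tregs with the small nucleolar RNA covariate. Of the probe sets listing several alpha segments, 5 were called in M176 against WT Tregs after quantile normalisation and 0 with the covariate. In M354 against M176 Tregs they were 7 and 1, and for the difference in M176 effect 1 and 0, with 5 under the filter at percentile 75. For the gamma probe sets in M354 against WT Tregs the replicate block left 0. The cause was not tested, and the share of all genes or probe sets called under each alternative is not given here. A group left with a single array was assumed to vary like the others. With an array left out, the segments called ranged over 0 to 2 (M354 against WT Tregs), 1 to 5 (M176 against WT Tregs), 2 to 6 (M354 against M176 Tregs), 0 to 1 (M354 effect), 0 to 3 (M176 effect), 2 to 4 (WT Tregs against WT transduced) and 4 to 6 (all Tregs against all transduced), and were 0 in transduced cells. In the first of these, leaving out replicate 1 of M354 or of WT Tregs gave 0; in the second, leaving out WT replicate 1 gave 1; in the third, leaving out M354 replicate 1 gave 2. The alpha probe sets ranged over 2 to 12, 4 to 13, 0 to 7, 4 to 18 and 22 to 24 in M176 against WT Tregs, M354 against M176 Tregs, the M176 effect, the WT groups and all arrays, and the gamma ones over 0 to 1 in M354 against WT Tregs and 2 to 2 elsewhere. Groups share replicate numbers, but nothing ties arrays of the same number: the deviations of 15 pairs of groups correlated between -0.55 and 0.25, and the replicate block is no paired test.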
